A study of Homo sapiens with 32 samples.

Results

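The comparison described here was between LNCaP cells exposed to epidermal growth factor (EGF) for 4 hours and LNCaP cells that received no growth factor. Its members were 8 of the 32 RNA-Seq libraries of the series, chosen by label: 4 libraries from cells in medium with charcoal-stripped serum (CSS) plus EGF at 100 ng/ml for 4 hours, and 4 from cells in the same medium alone. LNCaP is a prostate cancer cell line that came from a metastatic lymph node, and the cells of all libraries are of this 1 line. They were grown in RPMI-1640 with 10% serum, washed, and moved on the second day to medium with 10% serum treated with charcoal and dextran, which takes out most steroid hormones, and EGF was added on the next day. Each group held 2 libraries in each of 2 batches, named here by batch and replicate. The labels do not say whether replicates were separate cultures, so the *P* values measure the spread between these libraries, which may be technical.

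EGF binds EGFR, a receptor tyrosine kinase that signals alone or paired with HER2 (*ERBB2*), chiefly through the RAS-ERK and PI3K-AKT pathways. The early transcriptional answer to such a signal consists of immediate early genes, which need no new protein and encode transcription factors such as those of the EGR and AP-1 families. A delayed answer follows, in which their targets, feedback inhibitors of ERK, and genes for adhesion, motility, and biosynthesis change. AKT also keeps the FOXO transcription factors out of the nucleus, and their target genes then lose an activator.

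Total counts were 66903100 to 87130400 in the CSS libraries and 69089100 to 92397700 with EGF, so that counting error is small for all but the lowest genes. In a principal component analysis of the 8 libraries, the first component (79.6% of the variance) separated the groups and the second (12.3%) separated the batches. All 11 markers of prostate luminal epithelium, such as the keratins *KRT8* and *KRT18*, exceeded 1 TPM (a level scaled for gene length and depth). The defining markers of basal epithelium (*KRT5*, *TP63*), T cells (*CD3E*), and endothelium (*CDH5*) did not exceed 0.01 TPM in any of the 8 libraries. Other markers of these and of stromal cells were detected at low levels: *VWF* (endothelium) at a mean of 2.16 TPM in CSS and 0.932 TPM with EGF, *DST* (basal) at 2.01 and 3.97 TPM, and *COL1A1* (stroma) at 3.24 and 2.99 TPM, and the basal keratin *KRT15* was higher with EGF at no more than 0.20 TPM. Their part in the results was not tested. The summed level of the 5 leukocyte markers was 3.33 to 4.13 TPM in CSS and 12.3 to 16.4 TPM with EGF, and nearly all of it came from *CD68*, which encodes a protein of lysosomal membranes. The bulk libraries cannot tell fewer cells of a type from less RNA per cell.

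At 4 hours of EGF, 996 genes were DEGs with a higher level than in CSS (5.86% of the 16995 genes tested) and 629 were DEGs with a lower level (3.7%), where DEG means a log2 change of more than 1 either way at an adjusted *P* value below 0.05. At the same *P* value and any size of change, 4183 genes were higher (24.6%) and 4175 lower (24.6%). A fitted log2 change of more than 4 was seen in 138 higher and 7 lower DEGs, and of 1 to 2 in 538 and 529. The fitted size is not reliable where the lower group had 3 counts or fewer in every library, as for 184 higher and 67 lower DEGs. Without these, 54 higher DEGs and 1 lower DEG changed by more than 4. The median size of the change was 1.85 among DEGs that were higher and 1.35 among those that were lower, and 1.64 and 1.29 without the genes at such low counts. Of the higher DEGs, 970 of 996 moved the same way in all 4 same-numbered pairs of libraries, and of the lower ones 594 of 629. All tests are the quasi-likelihood test of edgeR with Benjamini-Hochberg adjustment over all genes tested, with batch as a term, unless another is named.

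Levels below are CPM, that is, counts brought to a common library size (TMM scaling, which trims extreme genes), and compare libraries for 1 gene, not genes with each other. When library totals were used for scaling in place of the trimmed mean, an alternative added after the data were seen, the median log2 fold change of all genes moved from -0.02 to -0.13 and the split of called genes from 4183 higher and 4175 lower to 3067 and 5794. With limma on log2(TPM + 1) and a filter on TPM, the split was 2624 higher and 4130 lower. Changes of about 0.1 on the log2 scale are therefore within the choice of scaling. The batch 1 libraries alone gave 4304 genes higher and 4060 lower, and the batch 2 libraries alone 2176 and 1439. The effect of EGF differed between the batches for 0 of the 16995 genes at an adjusted *P* value below 0.05 in edgeR and for 1113 at an unadjusted *P* value below 0.05. With 2 libraries per group in each batch, this test could miss differences between the batches.

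**Figure D1:**
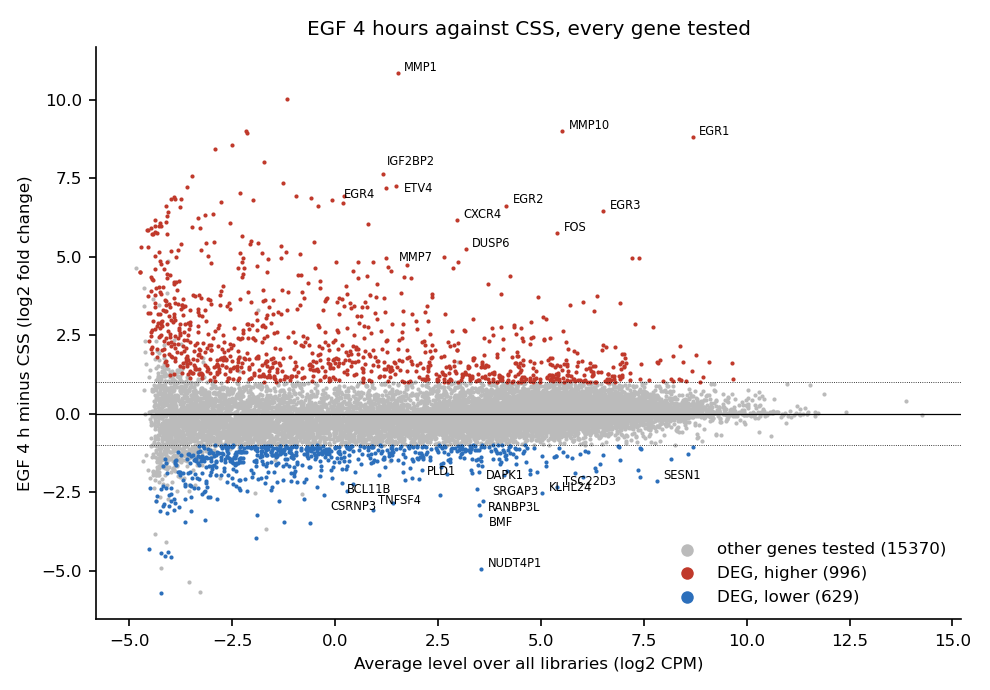
Log2 fold change of EGF at 4 hours against CSS (vertical axis) plotted against the average level in log2 CPM over all libraries (horizontal axis) for the 16995 genes tested, with 996 higher DEGs in red and 629 lower DEGs in blue. The dotted lines stand at a log2 fold change of 1 and -1, and 138 rises and 7 falls exceed 4 (54 and 1 without genes at 3 counts or fewer in the lower group).

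The 12 leading rises, the largest by fitted change among DEGs whose log2 CPM averaged at least 1 over all libraries and that had the same direction in all 4 same-numbered pairs, fell into a few functions. They were matrix metalloproteinases (*MMP1*, *MMP10*, *MMP7*), early transcription factors (*EGR1*, *EGR2*, *EGR3*, *EGR4*, *FOS*), the ETS factor *ETV4*, the ERK phosphatase *DUSP6*, the RNA-binding protein *IGF2BP2*, and the chemokine receptor *CXCR4*. For each of the 12, all EGF libraries were above all CSS libraries.

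*MMP10*, which encodes a matrix metalloproteinase (stromelysin 2), stood at 0.363, 0.344, 0.409, and 0.449 CPM in the CSS libraries and at 277, 292, 122, and 154 CPM with EGF, in the order batch 1 replicates 1 and 2, then batch 2 replicates 1 and 2. All EGF libraries were above all CSS libraries, and the pair in batch 1 was higher than the pair in batch 2 (log2 fold change 9.03, SE 0.31, adjusted *P* = 2.53e-19). *MMP1*, the interstitial collagenase, was represented by 0 or 1 count per CSS library and by 697 to 1676 counts with EGF. It rose at least 341-fold, taking 3 counts in the shallowest CSS library as the floor. *MMP7* (matrilysin) rose from 0.753 ± 0.194 CPM to 23.8 ± 2.58 CPM (SD, n = 4). The level of *MMP7* lay at 1.90 CPM after 1 hour, and the 4-hour libraries exceeded the 1-hour libraries directly (log2 difference 3.67, adjusted *P* = 5.67e-17 in edgeR).

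*EGR1*, a zinc finger factor that early growth signals switch on, stood at 1.16, 1.37, 1.21, and 1.29 CPM in CSS and at 632, 656, 490, and 474 CPM with EGF at 4 hours. The groups were far apart, although the level had already come down from a mean of 1316 CPM at 1 hour (4 hours against 1 hour, log2 difference -1.22, adjusted *P* = 0.00161 in edgeR). *EGR3* had dropped further, from 502 CPM at 1 hour to 11.6 ± 5.17 CPM at 4 hours, and remained above the 0.126 ± 0.0580 CPM of CSS. *EGR4* had 0 counts in every CSS library and was at least 5.59-fold above the floor of 3 counts at 4 hours. Its place among the leading rises rests on the fitted change and on its level at 1 hour (12.7 CPM), and this bound does not place it there. The 4-hour call of *EGR4* was lost with limma on log2(TPM + 1), with the filter or without it (adjusted *P* = 0.283 and 0.355). The difference of *EGR4* from CSS was not called on log2(TPM + 1) with limma (adjusted *P* = 0.355 without a filter on TPM), a scale that compresses low levels.

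*ETV4*, an ETS factor downstream of ERK, stood at 0.0363, 0.0859, 0.111, and 0.0486 CPM in CSS and at 10.5, 10.9, 11.7, and 10.7 CPM with EGF. The EGF libraries were within a narrow band, and most of the rise came after the first hour, when the mean was 0.166 CPM. *IGF2BP2*, which binds and stabilises mRNAs, likewise had 0.0701 CPM at 1 hour and 10.5 ± 3.74 CPM at 4 hours. *CXCR4*, the receptor for CXCL12, rose from 0.404 ± 0.0483 CPM to 29.8 ± 7.87 CPM, and *DUSP6*, which dephosphorylates ERK, from 0.717 ± 0.101 CPM to 27.3 ± 4.68 CPM. These 4 genes and the 3 metalloproteinases were higher at 4 hours than at 1 hour, and the 4 EGR genes and *FOS* were lower.

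**Figure D2:**
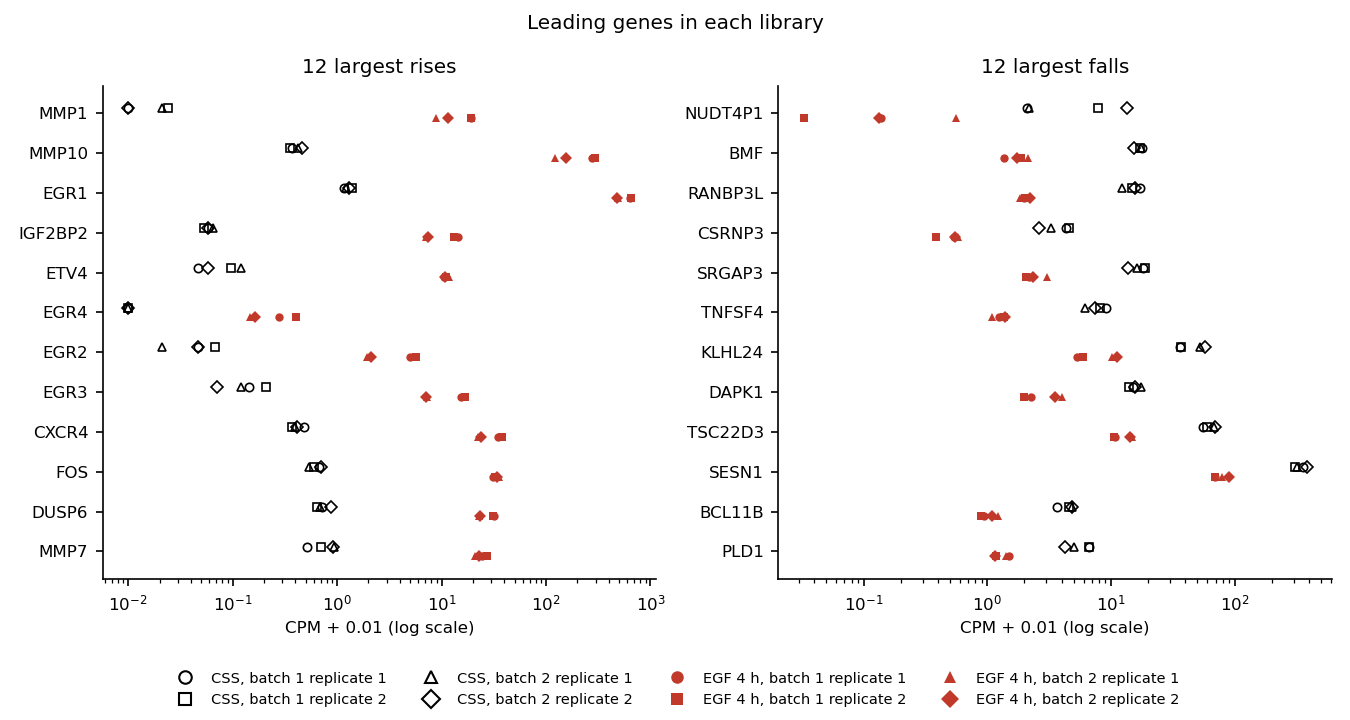
CPM + 0.01 on a log scale for the 12 leading rises (left) and 12 leading falls (right), 1 symbol per library, with CSS open and black and EGF at 4 hours filled and red. In all 24 genes the 4 EGF libraries lie on 1 side of the 4 CSS libraries, and *NUDT4P1* has the widest spread.

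The windows from 250 bases before to 50 bases after the start of each gene (RefSeq, GRCh38.p14) were searched on both strands for 8 motifs bound by factors of this response. Of the 24 leading genes, 21 had a window that was searched and 5 held a motif: *EGR1*, *MMP7*, *KLHL24*, *TSC22D3*, and *BCL11B*. The share of all windows with any of the 8 motifs was not computed, so the count of 5 cannot be set against a background. The sequences shown are those of the 2 rising and 2 of the 3 falling genes, from the first base of the window to the base before the start, with motifs in capitals. Capitals mark the EGR site and 2 CArG boxes, the sites of serum response factor, in *EGR1*, the AP-1 site in *MMP7* and in *KLHL24*, and the EGR site in *TSC22D3*.
EGR1, chr5:138465229-138465478, plus strand: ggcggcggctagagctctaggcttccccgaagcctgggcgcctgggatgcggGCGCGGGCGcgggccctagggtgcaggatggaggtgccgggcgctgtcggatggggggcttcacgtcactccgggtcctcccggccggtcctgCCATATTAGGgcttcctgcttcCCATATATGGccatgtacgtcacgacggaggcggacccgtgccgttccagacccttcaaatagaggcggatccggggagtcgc
MMP7, chr11:102530748-102530997, minus strand: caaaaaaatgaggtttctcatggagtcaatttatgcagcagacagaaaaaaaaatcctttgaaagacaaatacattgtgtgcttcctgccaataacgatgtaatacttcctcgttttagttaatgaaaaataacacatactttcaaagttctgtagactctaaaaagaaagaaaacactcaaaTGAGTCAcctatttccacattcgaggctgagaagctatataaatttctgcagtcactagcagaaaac
KLHL24, chr3:183635373-183635622, plus strand: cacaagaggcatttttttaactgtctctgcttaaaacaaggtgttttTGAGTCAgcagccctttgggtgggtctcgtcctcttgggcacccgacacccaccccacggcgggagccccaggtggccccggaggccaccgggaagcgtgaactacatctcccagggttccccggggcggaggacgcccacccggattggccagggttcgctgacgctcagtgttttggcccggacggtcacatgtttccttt
TSC22D3, chrX:107775989-107776238, minus strand: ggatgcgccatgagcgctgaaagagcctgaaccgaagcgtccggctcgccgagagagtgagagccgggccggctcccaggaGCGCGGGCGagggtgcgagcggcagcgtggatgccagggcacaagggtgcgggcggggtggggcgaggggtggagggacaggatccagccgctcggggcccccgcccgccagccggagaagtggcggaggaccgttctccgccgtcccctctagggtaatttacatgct

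The CArG boxes of *EGR1* lay at bases -105 to -96 and -83 to -74 from the start, and the AP-1 site of *MMP7* at -67 to -61. Among all 35116 windows in the table, 1.29% held a CArG box, 4.95% an AP-1 site (TGANTCA with C or G at N), 8.36% an EGR site (GCGNGGGCG with C, G, or T at N), and 7.26% an E-box (CACGTG, as in *BCL11B*). The other motifs were the cAMP response element TGACGTCA (1.85%), the ETS site CCGGAAGT (4.14%), a forkhead site (NTAAACA with G or A at N, 7.43%), and an NF-kappaB site (1.55%). A match is a string of letters and not evidence of binding, and it occurred in rising and falling genes.

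Of 22 immediate early factor genes, 14 were higher than in CSS at 4 hours and 3 were lower (the shares over all genes are 24.6% each), with a median log2 fold change of 0.84 (0.90 in batch 1 alone and 0.81 in batch 2 alone). The same genes had a median of 3.39 at 1 hour against the same CSS libraries. Tested directly, 20 of the 22 were lower at 4 hours than at 1 hour and 1 was higher, where 21.5% of all genes were lower and 22.5% higher. Of the 3 that were below CSS (*ATF3*, *NR4A2*, and *BTG2*), *ATF3*, a stress-inducible factor, had 55.0 ± 3.62 CPM in CSS, 674 CPM at 1 hour, and 29.3 ± 4.36 CPM at 4 hours. *NR4A2*, an orphan nuclear receptor, followed the same course at a low level (0.935 CPM, 2.40 CPM, and 0.349 CPM).

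Of 18 factors of the delayed answer, 12 were higher and 3 lower (median 0.80, with 0.70 and 0.72 in the batches). *FOSL1*, an AP-1 subunit, rose from 0.0866 ± 0.0114 CPM to 1.22 ± 0.151 CPM, and *ETV5*, a close relative of *ETV4*, from 0.949 ± 0.299 CPM to 5.82 ± 0.432 CPM. *ETV5* stood at 1.04 CPM after 1 hour, whereas *FOSL1* stood at 4.43 CPM, above its 4-hour level. Tested directly, 9 of the 18 factors were higher at 4 hours than at 1 hour and 8 were lower. In the other direction, the AP-1 subunit gene *FOSL2* had a log2 fold change of -0.71 and *RUNX2* of -0.66 (adjusted *P* = 3.27e-05 and 5.14e-05), and neither was called in batch 2 alone. The mean of *FOSL2* was 37.9 CPM in CSS and 83.0 CPM at 1 hour.

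Of 18 genes for feedback inhibitors of the ERK pathway, 13 were higher, 9 of them DEGs, and 2 lower (median 0.88). Besides *DUSP6*, *SPRY4* rose 10.9-fold, the phosphatase gene *DUSP5* 5.68-fold, and *SPRED1*, an inhibitor of RAF activation, 3.55-fold. *DUSP5* had been higher at 1 hour (56.9 CPM against 12.4 ± 1.35 CPM at 4 hours), whereas *SPRED1* was higher at 4 hours (45.2 ± 12.5 CPM against 18.4 CPM). The 2 members below CSS were *SPRED3* (log2 fold change -0.70) and *IL17RD* (-0.53), neither of which was called in batch 2 alone.

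**Figure D3:**
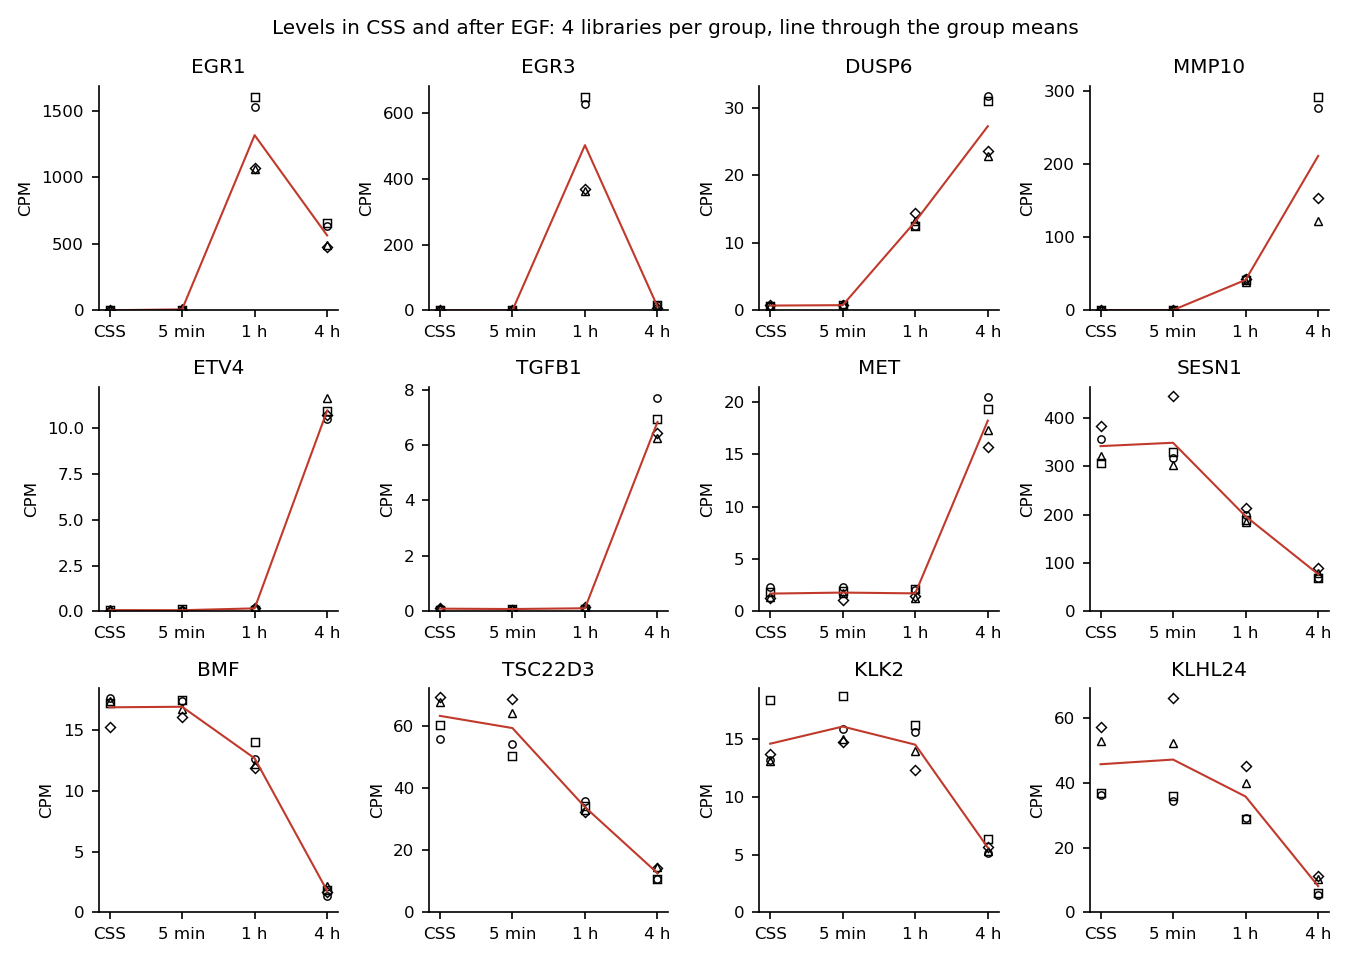
CPM of 12 genes in CSS and after 5 minutes, 1 hour, and 4 hours of EGF, with 1 symbol per library (4 per group) and a line through the group means. *EGR1* and *EGR3* peak at 1 hour, *TGFB1* and *MET* stand near CSS at 1 hour and are higher at 4 hours, and *SESN1* and *TSC22D3* are already lower at 1 hour.

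*EGFR* stood at 33.2, 36.6, 27.7, and 24.4 CPM in CSS and had a level of 88.3 ± 13.4 CPM with EGF (SD, n = 4), without overlap (log2 fold change 1.54, SE 0.15, adjusted *P* = 1.29e-09). *ERBB2*, which encodes HER2, ranged from 219 to 287 CPM in CSS and from 355 to 463 CPM with EGF (0.71, SE 0.10, adjusted *P* = 7.45e-07). At 1 hour the means were 30.4 and 265 CPM, and both genes were higher at 4 hours than at 1 hour (1.54 and 0.66, adjusted *P* = 1.58e-09 and 2.60e-06 in edgeR). *ERBB3*, the receptor for neuregulins, fell from 218 ± 18.1 CPM to 156 ± 16.6 CPM (-0.49, adjusted *P* = 0.000141), but was not called in batch 2 alone (-0.44, adjusted *P* = 0.137). *ERBB4* was near the detection limit, between 0.0486 and 0.177 CPM in CSS and between 0.0143 and 0.0755 CPM with EGF. Its adjusted *P* value of 0.0178 became 0.0504 without CSS batch 1 replicate 2, 0.0568 without CSS batch 2 replicate 1, and 0.0613 without EGF batch 1 replicate 1.

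Among the 16 ERBB receptors and their regulators, 7 were higher and 7 lower, and among 7 EGF family ligands tested 2 were higher and 2 lower. *CBL*, the ubiquitin ligase that marks active EGFR for degradation, rose 1.85-fold (adjusted *P* = 0.112 in batch 2 alone), and *LRIG3*, of a family that restrains ERBB receptors, had a log2 fold change of -0.96. Of the ligands, *HBEGF* rose 5.85-fold and *AREG* 3.36-fold, and both were lower at 4 hours than at 1 hour (log2 differences -0.69 and -2.01, adjusted *P* = 6.92e-09 and 9.06e-09).

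Of 29 other receptor tyrosine kinases, 16 were higher and 5 lower (median 0.53, with 0.11 to 0.60 over the alternatives). *MET*, the receptor for hepatocyte growth factor, had 1.70 ± 0.471 CPM in CSS and stood at 20.4, 19.3, 17.3, and 15.7 CPM with EGF. Its mean at 1 hour was 1.72 CPM, within the CSS range, and it was higher at 4 hours than at 1 hour (log2 difference 3.43, adjusted *P* = 2.60e-18). *EPHB6* rose 11.7-fold and *FGFR2* 4.96-fold, and *PDGFRA*, at 0 counts throughout CSS, rose at least 7.27-fold. The Wnt-binding receptors *ROR1* and *ROR2* were lower, with log2 fold changes of -0.94 and -1.28, respectively.

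Of 23 genes for proteases and their inhibitors, 12 were higher and 4 lower (median 0.60, and 0.77 and 0.78 in the batches). Over all alternatives the median of these proteases ranged from 0.03, with limma on log2(TPM + 1) and no filter, to 0.81, and the number higher from 5 to 12. *TIMP1*, an inhibitor of metalloproteinases, had 0 counts in 3 CSS libraries and 3 in the fourth, and was at least 40.6-fold higher. *MMP3* was at 0 counts throughout CSS and rose at least 4.38-fold. *MMP11* was lower (4.41 ± 0.424 CPM and 2.32 ± 0.617 CPM), as was *SERPINB5* by 0.39 on the log2 scale, although its groups overlapped, since its level differed between the batches. *SERPINB5* was not called in batch 2 alone (adjusted *P* = 0.261).

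Of 24 integrin and laminin genes, 14 were higher, 9 of them DEGs, and 1 was lower (median 0.77, with 0.09 to 0.84 over the alternatives). *ITGA2*, a chain of a collagen receptor, stood at 13.9, 15.3, 12.1, and 12.4 CPM in CSS and at 141, 141, 88.7, and 89.7 CPM with EGF. At 1 hour it stood at 12.0 CPM. *LAMB3*, a chain of laminin-332, rose 9.57-fold and *ITGB6* 21.4-fold. The lower member was *ITGA6* (-0.25), which was not called in batch 2 alone. Direct comparison with 1 hour gave 14 members higher and 2 lower.

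Of 27 genes of the actin cytoskeleton or targets of SRF and YAP, 17 were higher and 2 lower (median 0.92, with 0.68 and 0.93 in the batches). *ZYX*, a focal adhesion protein, stood at 79.6, 74.1, 72.4, and 65.6 CPM in CSS and at 556, 569, 436, and 428 CPM with EGF. *TPM4*, a tropomyosin, rose 4.47-fold and had a mean of 625 CPM at 1 hour and 618 ± 89.2 CPM at 4 hours. *FHL2* rose 6.14-fold, and *AJUBA* was lower (-0.65). With library totals for scaling, 6 members of this list were lower in place of 2.

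Of 14 keratins tested, 8 were higher and 1 lower. The paired keratins of luminal epithelium both rose: *KRT8* from 499 ± 10.7 CPM to 1550.3 ± 179 CPM and *KRT18* from 350 ± 9.10 CPM to 799 ± 59.3 CPM. No other marker of luminal epithelium was called higher. *SPDEF*, *STEAP2*, and *FOLH1* fell by 0.62, 0.58, and 0.29 on the log2 scale, and *HOXB13*, *KLK2*, and *KLK3*, given below, also fell. Among 17 epithelial and mesenchymal markers, 10 were higher and 3 lower. The higher ones included repressors of the epithelial state, with *SNAI2* up 5.71-fold and *SNAI1* up 3.23-fold, and also the epithelial claudin *CLDN7* (209 ± 20.9 CPM to 350 ± 13.3 CPM). *ZEB1* was called higher (0.159 ± 0.0218 CPM and 0.537 ± 0.293 CPM), but EGF batch 2 replicate 2, at 0.168 CPM, lay within the CSS range, and it was not called in batch 2 alone. *TJP1*, a tight junction protein, fell by 0.42 on the log2 scale and was not called in batch 2 alone (adjusted *P* = 0.166).

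*TGFB1*, the ligand of the TGF-beta pathway, stood at 0.0968, 0.0573, 0.111, and 0.134 CPM in CSS and at 7.71, 6.94, 6.26, and 6.42 CPM with EGF. The groups did not overlap, and the mean at 1 hour was 0.113 CPM. Its receptor gene *TGFBR2* rose alongside, from 0.677 ± 0.108 CPM to 13.5 ± 1.65 CPM, also after the first hour (0.584 CPM at 1 hour). *BMP7* rose 12.9-fold, after the first hour (0.148 CPM in CSS and 0.108 CPM at 1 hour). *ID1*, a target of BMP signals, rose 3.91-fold, and most of its rise came within the first hour. Its means were 9.72 CPM in CSS, 30.3 CPM at 1 hour, and 37.1 CPM at 4 hours. Over the whole list of 32 TGF-beta and BMP genes, 11 were higher and 11 lower, the latter including the receptor *BMPR2* (-0.62).

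In the Wnt pathway, 12 of 28 genes were higher and 9 lower. The transcription factor genes *TCF7* and *LEF1* rose 26.9-fold and 2.83-fold, *WNT3A* was at least 15.7-fold higher, and *WNT5A* fell from 8.08 ± 1.16 CPM to 2.68 ± 0.478 CPM. In the Notch pathway, 11 of 21 were higher and 5 lower. *HES1*, its best-known target, rose 9.49-fold and was already at 7.53 CPM at 1 hour, against 9.73 ± 0.622 CPM at 4 hours. *LFNG*, which modifies Notch receptors, rose 4.44-fold, after the first hour. *HES2* was called lower (-1.22), with groups that overlapped, and was not called in batch 2 alone (adjusted *P* = 0.118).

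Of 18 genes of NF-kappaB feedback and cytokines, 9 were higher and 2 lower. The subunit genes *RELB* and *NFKB2* rose 5.06-fold and 1.79-fold. *CXCL8*, which encodes interleukin-8, had at most 2 counts in every CSS library, peaked at 1.67 CPM at 1 hour, and was at least 3.18-fold higher at 4 hours. The 4-hour call of *CXCL8* was lost in batch 2 alone (adjusted *P* = 0.115) and with limma on log2(TPM + 1), with the filter or without it (0.212 and 0.262). *NFKBIA*, the inhibitor of NF-kappaB, had a mean of 15.3 CPM at 1 hour and stood at 37.6 ± 3.66 CPM in CSS and 31.4 ± 0.796 CPM at 4 hours (-0.25, adjusted *P* = 0.0204). This last call was lost without EGF batch 2 replicate 1 or replicate 2 (adjusted *P* = 0.0673 and 0.0741). It was also lost in batch 1 alone (-0.12, adjusted *P* = 0.232), with no batch term (0.0651), and with limma on log2(TPM + 1) without the filter (0.0541).

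The most uniform rise was in ribosome biogenesis. Of 45 genes for RNA polymerase I and rRNA processing, 38 were higher, 0 were lower, and 7 did not pass the test. The changes were small: 0 of the 45 were DEGs, the median was 0.56 (0.58 in batch 1 alone and 0.55 in batch 2 alone), and the largest, in the processing factor *RRP12*, was 0.99. *RRP12* stood at 53.2, 55.3, 52.7, and 44.5 CPM in CSS and at 111, 104, 108, and 87.2 CPM with EGF. *LYAR*, *NOL6*, and *CIRH1A* rose 1.86-fold, 1.80-fold, and 1.75-fold. Against 1 hour, 34 of the 45 were higher and 0 lower.

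Of 82 cytosolic ribosomal protein genes, 1 was higher and 1 lower, and their median was 0.00 (0 higher, 5 lower, and a median of -0.11 with library totals). Of 77 mitochondrial ribosomal protein genes, 15 were higher and 1 lower, but 8 and 9 with library totals, where the median changed sign (0.07 and -0.04). *MRPL36* rose by 0.80 on the log2 scale (not called in batch 2 alone). Translation initiation factors had 25 of 55 higher and 5 lower (21 and 12 with library totals), and DEAD and DEAH box helicases, of which many process RNA, 31 of 57 higher and 6 lower (19 and 10).

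Of 25 genes for nucleotide synthesis, 15 were higher and 0 lower (median 0.17). *CTPS1*, CTP synthase, rose 1.77-fold and *IMPDH1*, of guanine nucleotide synthesis, 1.57-fold. Of 29 cytosolic and mitochondrial chaperone genes, 21 were higher and 0 lower (median 0.25, with 0.29 and 0.26 in the batches). Small heat shock protein *HSPB1* rose from 330 ± 19.2 CPM to 665 ± 30.3 CPM and had reached 654 CPM at 1 hour. *HSPH1* and the constitutive HSP70 *HSPA8* rose 1.68-fold and 1.54-fold and were higher at 4 hours than at 1 hour. The difference of *HSPA8* from CSS was not called in batch 2 alone (adjusted *P* = 0.149). With library totals, 9 nucleotide synthesis genes were higher and 4 lower, and 13 chaperone genes were higher.

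Of 20 aminoacyl-tRNA synthetase genes, 11 were higher and 2 lower (7 and 4 with library totals, median 0.13 and 0.02), with *FARSA* up by 0.49 and *AARS* down by 0.25 on the log2 scale. *AARS* was not called in batch 2 alone (adjusted *P* = 0.188). Targets of ATF4 and amino acid transporters, which mark amino acid stress, leaned the other way, with 5 of 27 higher and 11 lower (median -0.11), or 3 and 14 with library totals. *CHAC1*, a glutathione-degrading enzyme, was at 29.7 ± 3.77 CPM in CSS, 64.9 CPM at 1 hour, and 18.0 ± 3.17 CPM at 4 hours. *SESN2* had the same course (59.4, 83.9, and 32.7 CPM), and *SLC7A11*, the cystine transporter, fell by 0.40. Among 25 ER chaperone and unfolded protein response genes, 14 were higher and 3 lower (7 and 5 with library totals, median 0.16 and 0.05), with *HSPA5* (BiP) up by 0.47 and *HERPUD1* down by 0.71 on the log2 scale. *HSPA5* and *SLC7A11* differed between batches, so that their groups overlapped across batches and not within them.

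Of 30 glycolysis genes, 16 were higher and 5 lower (11 and 7 with library totals, median 0.17 and 0.06). In batch 2 alone, 7 were higher and 3 lower. *PFKP*, a phosphofructokinase, rose from 58.6 ± 3.16 CPM to 139 ± 6.13 CPM, *ENO2* 2.22-fold, and *PFKFB3*, which makes the activator of phosphofructokinase, 2.13-fold. The glucose transporter gene *SLC2A12* fell from 64.2 ± 12.5 CPM to 24.0 ± 1.79 CPM. Of 23 cholesterol genes, 11 were higher and 3 lower (8 and 4 with library totals, median 0.20 and 0.08). The sterol carrier *STARD4* rose 2.32-fold and *DHCR7*, an enzyme of cholesterol synthesis, 1.84-fold. Fatty acid synthesis had 3 of 20 higher and 6 lower: *ME1*, malic enzyme, rose 1.97-fold and *ACACB*, the acetyl-CoA carboxylase tied to control of oxidation, fell by 1.13 on the log2 scale. Fatty acid oxidation had 2 of 25 higher (8%) and 4 lower (16%), below the 24.6% of all genes tested, and 13 were lower with library totals. Lysosome and autophagy genes had 4 of 33 higher (12.1%) and 7 lower (21.2%), also below the share of all genes. With the replicate block 13 were lower, and with library totals 18. *TFEB*, a master regulator of lysosomal genes, rose 2.94-fold.

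By the same rule, the leading falls were in *NUDT4P1*, *BMF*, *RANBP3L*, *CSRNP3*, *SRGAP3*, *TNFSF4*, *KLHL24*, *DAPK1*, *TSC22D3*, *SESN1*, *BCL11B*, and *PLD1*. *NUDT4P1* is named as a pseudogene, and its counts could be split with its parent gene, so that its value is uncertain: it ranged from 2.09 to 13.6 CPM in CSS and from 0.0228 to 0.554 CPM with EGF, and its adjusted *P* value of 0.0140 became 0.0582 without CSS batch 2 replicate 2. The call of *NUDT4P1* was also lost in batch 1 alone (adjusted *P* = 0.0774) and in batch 2 alone (0.178). With limma on log2(TPM + 1) it was lost with the filter or without it (0.110 and 0.155). All 12 had a lower mean at 4 hours than at 1 hour. For *NUDT4P1*, the 1-hour libraries ranged from 0 to 50.2 CPM and overlapped those at 4 hours.

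*BMF*, a BH3-only protein that promotes apoptosis, stood at 17.6, 17.2, 17.4, and 15.3 CPM in CSS and at 1.35, 1.88, 2.14, and 1.71 CPM after EGF (-3.24 on the log2 scale, SE 0.13, adjusted *P* = 5.27e-18). The fall was late, from 12.7 CPM at 1 hour. *SESN1*, a stress-inducible inhibitor of mTORC1, stood at 355, 306, 321, and 383 CPM in CSS and at 69.8, 69.2, 79.0, and 89.9 CPM with EGF (-2.15, SE 0.12, adjusted *P* = 5.98e-15). It was intermediate at 1 hour (196 CPM). *TSC22D3* (GILZ), a glucocorticoid-induced gene, stood at 55.7, 60.1, 67.6, and 69.2 CPM in CSS and at 10.8, 10.6, 14.7, and 14.3 CPM with EGF.

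*DAPK1*, a kinase that promotes cell death, fell from 15.5 ± 1.40 CPM to 2.95 ± 0.994 CPM, and *KLHL24*, a substrate adaptor of a ubiquitin ligase, from 45.8 ± 10.9 CPM to 8.13 ± 2.97 CPM. *SRGAP3*, a GTPase-activating protein, fell from 16.7 ± 2.32 CPM to 2.39 ± 0.430 CPM, and *TNFSF4* (OX40 ligand) from 7.68 ± 1.23 CPM to 1.26 ± 0.135 CPM. The other 4 were *RANBP3L*, *CSRNP3*, the transcription factor *BCL11B*, and the phospholipase *PLD1*, with log2 fold changes of -2.90, -2.86, -2.11, and -2.09.

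Of 30 FOXO-linked genes, 21 were lower and 5 higher (median -0.37, with -0.44 and -0.30 in the batches). The list includes *BMF*, *KLHL24*, and *SESN1* from the leading falls and *IRS2*, an insulin receptor adaptor, which fell from 4.00 ± 0.458 CPM to 1.46 ± 0.120 CPM. The higher members included the related adaptor *IRS1*, at 6.13, 6.89, 7.38, and 6.58 CPM in CSS and 27.6, 25.1, 21.5, and 19.0 CPM with EGF, and the repressor *BCL6*, up 2.87-fold. Against 1 hour, 16 members were lower and 6 higher.

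Of 26 p53 target genes, 15 were lower and 4 higher (median -0.25). *BBC3* (PUMA), a BH3-only protein, fell from 9.09 ± 1.05 CPM to 3.73 ± 1.05 CPM. *PLK3*, which is also induced by growth factors, rose from 2.90 ± 0.537 CPM to 10.1 ± 0.773 CPM and was at 8.58 CPM at 1 hour. The p53 list shares *SESN1* with the FOXO-linked list, *SESN2* with the ATF4 list, and *BBC3* with the BCL2 family. Of 17 BCL2 family genes, 7 were higher and 5 lower. Both directions held promoters of apoptosis, with *BMF* and *BBC3* lower and *BOK* higher (28.6 ± 1.27 CPM and 79.9 ± 8.64 CPM).

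Of 38 mitosis and G2/M genes, 30 were lower and 0 higher (median -0.34), with no DEG among them. *TTK*, a kinase of the spindle checkpoint, stood at 25.8, 27.2, 22.7, and 28.4 CPM in CSS and at 13.7, 14.0, 13.2, and 17.1 CPM with EGF. *KIF20A*, a mitotic kinesin, fell by 0.68, *CENPF*, of the kinetochore, by 0.62, and *HMMR*, of the spindle, by 0.61 on the log2 scale. The median was -0.41 in batch 1 alone and -0.30 in batch 2 alone, and the number of members called lower was 34 and 5. *TTK*, *CENPF*, and *HMMR* were not called in batch 2 alone. Tested against 1 hour, 28 of the 38 were lower and 0 higher.

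Of 37 DNA replication and G1/S genes, 5 were higher (13.5%) and 6 lower (16.2%), both below the 24.6% of all genes tested. The counts were 6 and 13 with the replicate number as a block, and 4 and 18 with library totals. *MCM6*, of the replicative helicase, rose from 71.6 ± 2.81 CPM to 101 ± 7.17 CPM, and *E2F1* fell by 0.40, with groups that overlapped between batches. *E2F1* was not called in batch 2 alone (adjusted *P* = 0.101). Among 17 D cyclins and CDK inhibitors, 7 were higher and 8 lower. *CDKN2B* (p15), an inhibitor of CDK4 and CDK6, stood at 2.19, 2.29, 2.69, and 1.92 CPM in CSS and at 25.5, 25.8, 16.7, and 14.9 CPM with EGF. In contrast, *CDKN1B* (p27) fell from between 110 and 122 CPM in CSS to 67.7 ± 1.28 CPM after a level of 184 CPM at 1 hour, and *CDKN2C* (p18) by 0.84 on the log2 scale. *CCNG2*, a cyclin linked to arrest, was at 151 ± 9.66 CPM in CSS, 388 CPM at 1 hour, and 92.6 ± 10.5 CPM at 4 hours.

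**Figure D4:**
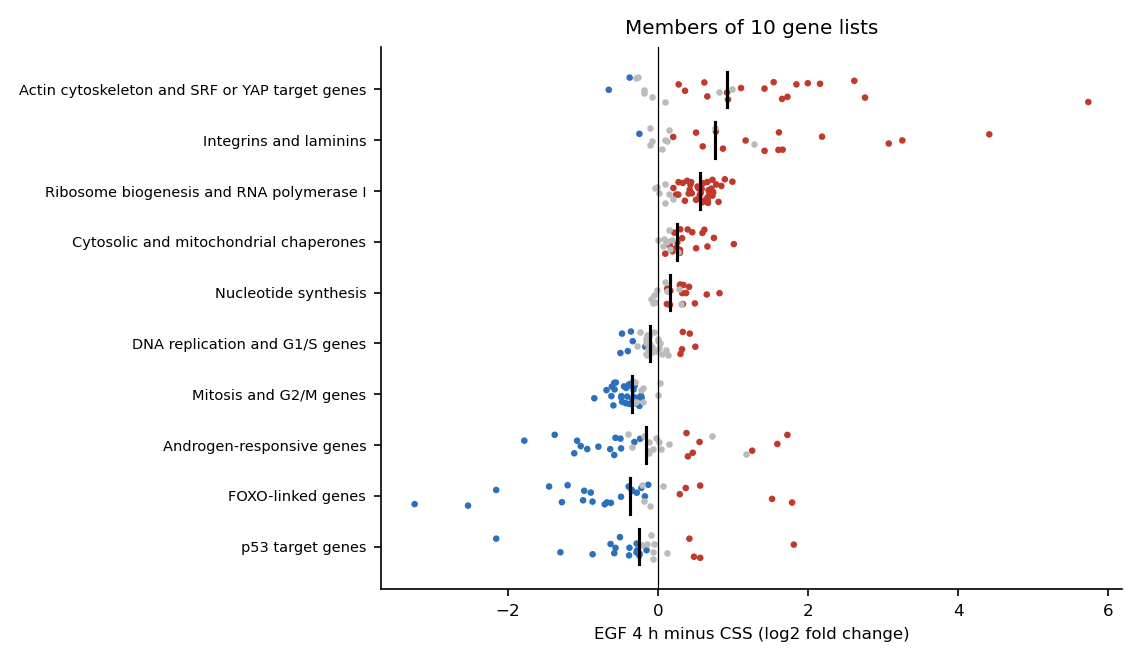
Log2 fold change of each tested member of 10 gene lists (horizontal axis), with members called higher in red, called lower in blue, and not called in gray, and a black bar at the median of the list. Ribosome biogenesis members cluster around 0.56 and mitosis members around -0.34, whereas the FOXO-linked and androgen-responsive lists spread widely on both sides of 0.

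Of 34 androgen-responsive genes, 14 were lower and 7 higher (median -0.16). *KLK2* fell from 14.6 ± 2.53 CPM to 5.61 ± 0.529 CPM, and *KLK3*, which encodes PSA, from 219 ± 43.1 CPM to 139 ± 13.1 CPM. At 1 hour the kallikreins *KLK2* and *KLK3* had means of 14.5 and 218 CPM, within their CSS ranges. *C1orf116* fell by 1.08, and *SPOCK1* rose by 1.73 on the log2 scale. The cells were in hormone-depleted serum in both groups.

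Of 30 HOX genes tested, 19 were lower, 11 of them DEGs, and 2 higher (median -0.84, with -0.87 and -0.86 in the batches). Over the alternatives the median of the HOX genes ranged from -0.95 to -0.25. *HOXB13*, a luminal prostate marker, fell from 565 ± 25.9 CPM to 311 ± 21.5 CPM, and *HOXA3* by 2.11 on the log2 scale. *HOXD13* was called higher at a very low level (0.0610 ± 0.0504 and 0.171 ± 0.0414 CPM) and was not called in either batch alone.

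Of 32 genes of the primary cilium, 19 were lower and 4 higher (median -0.23), with *TTC21B*, of the transport machinery, at -0.72 and *BBS5* at 0.72. Of 30 interferon-stimulated genes, 16 were lower and 4 higher (median -0.30). *DDX58* (RIG-I) and *IFIT2* fell by 0.82 and 0.74, and *ISG15* rose by 0.66 on the log2 scale. In batch 2 alone, 4 cilium genes and 6 interferon-stimulated genes were lower.

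Of 20 clock genes, 10 were lower and 6 higher. *ARNTL* (BMAL1) fell from 9.64 ± 0.768 CPM to 3.76 ± 0.718 CPM, and *NPAS2*, which can replace CLOCK as its partner, rose from 4.02 ± 0.557 CPM to 17.9 ± 2.56 CPM. *BHLHE41*, a repressor in the clock, rose 3.19-fold, and the clock-linked factor *DBP* fell by 1.07 on the log2 scale.

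Noncoding genes leaned to the lower side. Among 416 antisense RNA genes, 146 were lower and 44 higher (182 and 29 with library totals), and among 218 long intergenic noncoding RNA genes, 83 were lower and 24 higher. RefSeq annotated 12.4% of the lower DEGs as lncRNAs, against 4.42% of the higher DEGs and 6.09% of all genes tested, with 93.8%, 97.8%, and 96.9% of the 3 sets matched by symbol. *CALML3-AS1*, with 0.556 ± 0.141 CPM in CSS and 0.0483 ± 0.0145 CPM with EGF, had the largest fall among antisense genes that were DEGs. The 496 ZNF genes had 163 lower and 97 higher (225 and 59 with library totals), with the largest rise in *ZNF423* (9.55-fold).

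**Figure D5:**
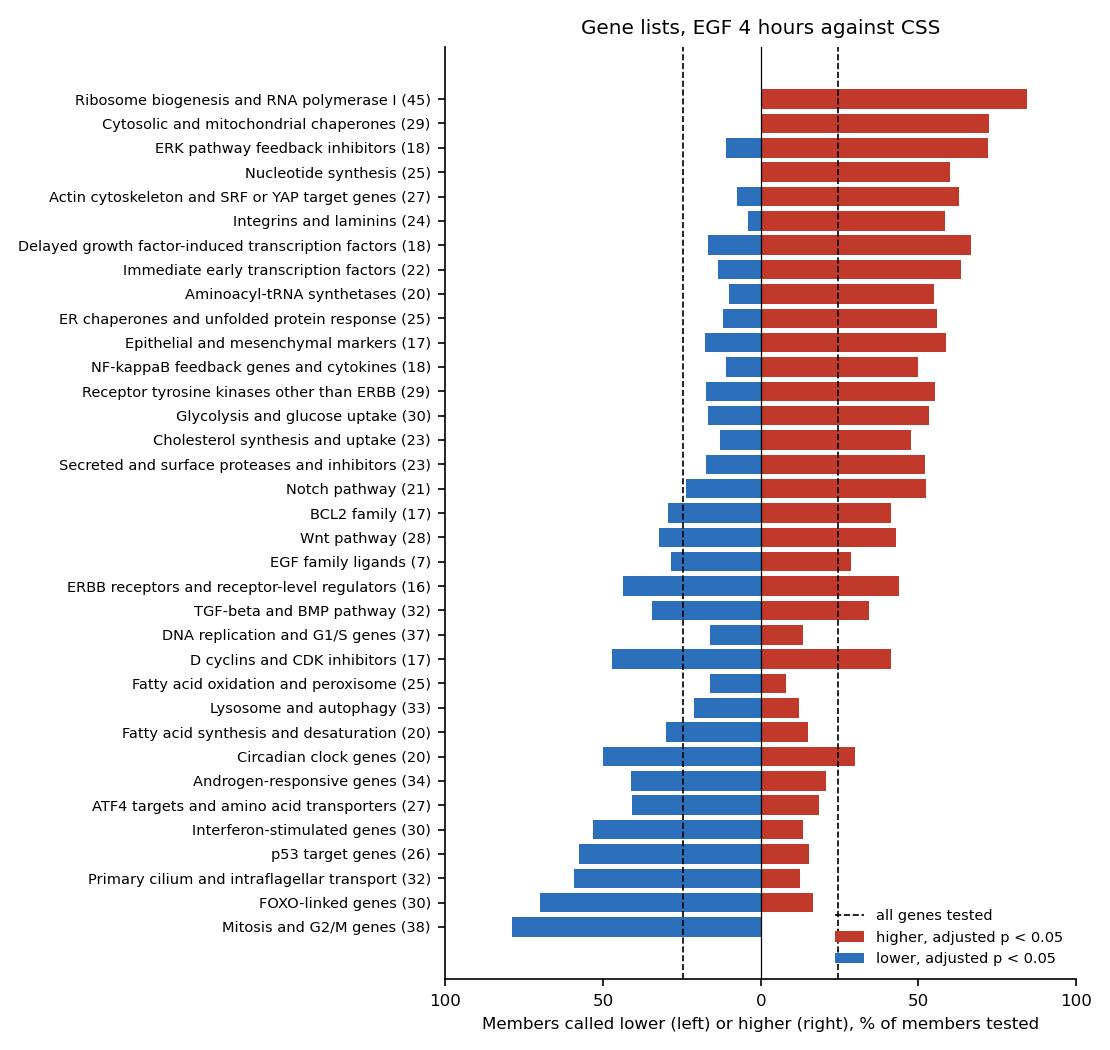
Percentage of tested members called higher (red, to the right) or lower (blue, to the left) at an adjusted *P* value below 0.05 for 35 gene lists, with the number tested in parentheses and dashed lines at the 24.6% of all genes tested. Ribosome biogenesis (38 of 45 higher) and mitosis (30 of 38 lower) stand at the ends.

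The other ligand of the series, NRG-1, binds HER3 and HER4. EGF differed from NRG-1 at 4 hours in 25 DEGs with a higher level under EGF (0.147% of genes tested) and 4 with a lower level (0.0235%). Among the 12 leading rises, the difference was a DEG in *EGR1* (log2 difference 3.10, SE 0.33), *EGR4* (2.85), *EGR3* (2.09), *MMP1* (1.78), *EGR2* (1.44), *FOS* (1.11), and *MMP10* (1.10), each higher with EGF. The log2 difference of *ETV4* from NRG-1 was -0.01 (SE 0.14, adjusted *P* = 0.991). For *TGFB1* the difference was 0.06 and for *TIMP1* 0.29 (adjusted *P* = 0.907 and 0.689). Against the CSS libraries that both comparisons share, *BMF* had a log2 fold change of -3.24 with EGF and -2.64 with NRG-1. The 29 genes became 15 without EGF batch 1 replicate 1 and 18 without EGF batch 1 replicate 2.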

How the data were processed

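RNA-Seq was performed on LNCaP cells in 32 libraries, with directional (strand-recording) libraries from polyA RNA. Per the labels and methods, the authors trimmed reads with Trimmomatic 0.36 and aligned and quantified them with STAR 2.7.0f and RSEM. The submitters' processing notes name the build hg19, and the annotation is not given in the sources used here. The authors deposited expected counts per gene, which share reads of similar genes by estimation, and TPM values, which are scaled for gene length and depth. The tables give gene symbols only, and 0 columns were left unmapped.

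After rounding of the expected counts, genes that reached 5 counts in 3 or more libraries entered the quasi-likelihood test of edgeR 4.0.16 (R 4.3.3), with TMM scaling and terms for group and batch over all 32 libraries, and the Benjamini-Hochberg adjustment ran over all genes tested. The script was tested on simulated data. The contrasts were EGF at 4 hours against CSS, against EGF at 1 hour, and against NRG-1 at 4 hours. Alternatives used DESeq2 1.42.0, limma 3.58.1 on log2(TPM + 1) or log2(TPM + 0.1) with at least 0.5 TPM in at least 3 libraries or with no filter, other scalings and filters, no batch term, a replicate block, each batch alone, and each library left out.

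The comparison and the gene lists were chosen with earlier results of these data known. Named genes were the 12 leading rises and 12 leading falls, in each list the called members with the largest changes (up to 4 in the main direction and 2 in the other), the largest rise and fall of each symbol class, the ERBB receptors, *KLK2*, and *KLK3*. The genes *KRT8*, *KRT18*, *HOXB13*, *SPDEF*, *STEAP2*, *FOLH1*, *CD68*, *VWF*, *DST*, *COL1A1*, and *KRT15* were cell type markers, and *BTG2* was named after its value was seen. A gene with 3 counts or fewer in every CSS library was given a bound on its fold change against 3 counts in the shallowest library.

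Deviations from the group means correlated within same-numbered sets of libraries (r = 0.56, 0.50, 0.59, and 0.77), where numbers combine batch and replicate. After the batch means were removed, r was -0.04 in batch 1 and 0.70 in batch 2, and the labels do not say what a replicate number shares. Promoter windows came from RefSeq (GRCh38.p14) and were used for sequence only. Fewer than 80% of DEGs had a window (71.7% of the higher and 67.2% of the lower), so a comparison of motifs or GC content between gene sets was void. Some genes are not reported here.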

Additional observations from a re-analysis of the deposited data

Results flagged for a closer look

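In 5 of 290 groups of 4 libraries, 1 library stood apart from the other 3 by Dixon's test, where chance gives about 1 in 20. They were *TIMP1* in CSS batch 2 replicate 2 (0.0364 CPM, with 0 in the others), *HSPA8* in EGF batch 2 replicate 2 (5403 CPM, with 4470 to 4556 in the others), *SESN2* in CSS batch 2 replicate 1 (64.4 CPM, with 57.5 to 58.0), *ACACB* in EGF batch 2 replicate 1 (5.22 CPM, with 4.56 to 4.67), and *KLK2* in CSS batch 1 replicate 2 (18.4 CPM, with 13.1 to 13.7).

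The response at 4 hours differed from that at 1 hour in 1397 DEGs by the quasi-likelihood test of edgeR. EGF and NRG-1 differed at 4 hours in 29 DEGs, among them *EGR1* (log2 difference 3.10), *EGR4* (2.85), *EGR3* (2.09), *MMP1* (1.78), *EGR2* (1.44), *FOS* (1.11), and *MMP10* (1.10), each higher with EGF.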

How the results depend on the processing

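All 145 genes named from these lists had an adjusted *P* value below 0.05. Of these, 119 kept direction and call under every alternative that tested them, 26 lost the call under at least 1, and 0 reversed. Leading genes and members of lists and classes were named only if they had an adjusted *P* value below 0.05. These counts therefore do not measure how well calls hold among all genes. A gene that a filter removed was not counted as lost under that alternative. *MMP3* and *PDGFRA*, for example, were tested under 18 of 21 alternatives, and *MMP1* and *TIMP1* under 20. Of 45 lost values, 22 were in batch 2 alone and 3 in batch 1 alone, which holds as many libraries. The replicate block gave 1000 DEGs higher and 646 lower, 4794 genes higher and 4891 lower at any size, 1411 DEGs against 1 hour, and 39 against NRG-1. Requiring 10 counts in every library left 13766 genes to test, with 511 DEGs higher and 322 lower, 716 DEGs against 1 hour, and 10 against NRG-1. The difference from NRG-1 gave 12 DEGs when batch was not a term, 18 when the fit held just the 2 groups, and 48 for batch 1. Batch 2 alone gave 355 DEGs lower, 2176 genes higher and 1439 lower at any size, 876 DEGs against 1 hour, and 4 against NRG-1. Limma on log2(TPM + 1), with or without the filter, gave 316 DEGs higher and 95 lower, 396 against 1 hour, and 9 against NRG-1, and 2624 genes higher at any size with the filter. Limma on log2(TPM + 0.1) gave 535, 343, 762, and 13 in that order, and 2614 genes higher at any size. For these changes the cause was not tested. Without 1 library at a time, DEGs higher numbered 941 to 1031 and lower 571 to 687, genes higher at any size 3850 to 4045 and lower 3795 to 3970, DEGs against 1 hour 1310 to 1449, and DEGs against NRG-1 15 to 38. Of 56 list and class medians, 42 kept their sign under every alternative, and 317 of 1197 values moved by more than 1 SD of the pairs, 56 of them with library totals, which were chosen after the data were seen. Depth limits genes at a few counts, such as *ERBB4*.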
